A study of Homo sapiens with 12 samples.

Results

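The genes examined here are 47 genes of DNA replication, taken by name from a list of origin licensing factors, helicase subunits, polymerases, sliding clamp and clamp loader subunits, single-strand binding proteins, nucleotide supply enzymes and the E2F activators. Each symbol mapped to 1 Ensembl identifier, and the 47 genes stand among 58174 genes in the tables. They were measured by mRNA-seq in U87 and U118, human glioblastoma cell lines. Control cells, which the labels call sensitive, were compared with aggregation cells, which the labels call resistant and which, per the study's account, arose in cultures exposed to temozolomide (TMZ), an alkylating drug, at 50 μM, with 3 libraries in each of the 4 groups. By the same source the cultures began from cells sorted as CD133-CD15- and were kept in serum with BMP2, and the aggregation cells descended from the few aggregates that resumed dividing, so each aggregation group may stand for few founder cells. Nothing in the labels says that the 3 libraries of a group came from separate cultures, so the p-values below measure only the spread between libraries.

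DNA replication begins when the origin recognition complex (ORC), with CDC6 and CDT1, loads the MCM2-7 ring onto DNA in G1, a step called licensing, and geminin (GMNN) blocks CDT1 after S phase has begun. CDC45 and the GINS complex turn the loaded ring into the active CMG helicase, primase and polymerase alpha lay down primers, and polymerases delta and epsilon extend them on the PCNA clamp. Most of these genes are transcribed as cells pass from G1 into S phase, and E2F1 and E2F2 are activators of that transcription. In bulk libraries fewer cells in S phase and less RNA per cell cannot be told apart.

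The values are TPM, which divide the reads of a gene by its length and scale every library to the same total of transcripts. TPM keep no read depth, so the counting error of a single value is unknown. A fold change below is the difference of mean log2(TPM + 1), aggregation minus control, with its standard error (SE). A gene was called when limma gave an adjusted p under 0.05 over all genes tested and the log2 fold change was at least 1 in size. The scaling is to a fixed total, and the cause of any shift common to most genes was not tested. The median of all genes tested moved as well, by -0.24 in U87 and -0.52 in U118. Median-ratio scaling, which sets the typical gene to no change, brought these medians to -0.0018 and -0.035, and it raised the share of higher calls among all calls to 56.6% from 28.0% in U87 and to 53.8% from 24.5% in U118. Member changes are therefore also given on that scale.

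The 3 libraries labelled U118 aggregation stood apart from the control of their own line. Across 16382 genes, which are not independent replicates, their Spearman correlation with U118 control was 0.808 to 0.839 and with U87 control it was 0.895 to 0.909, while U87 aggregation and U87 control correlated at 0.944 to 0.952. Of 152 genes at 10 TPM or more in every U118 control library and under 1 TPM in every U87 library, 107 were under 1 TPM in all 3 U118 aggregation libraries and 7 were at 10 TPM or more in all of them. Of 82 genes with the opposite pattern, 48 were at 10 TPM or more in all 3. Every U118 change below rests on these libraries and none can be given without them. A change with TMZ and a difference in the cells that made up the cultures cannot be told apart in U118.

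Other measures moved with the groups. Mitochondrially encoded genes held 12.9% to 16.9% of TPM in U87 control and 22.2% to 23.7% in U87 aggregation, and 7.42% to 19.7% and 13.2% to 29.9% in U118. Summed over 10 proliferation markers, U87 control held 1343 to 1554 TPM and U87 aggregation 518 to 571 TPM, with 8 of 10 called lower, as on the median-ratio scale. U118 control held 1438 to 1620 TPM and U118 aggregation 619 to 903 TPM, with 5 of 10 called lower, or 2 on that scale. Of 11 fibroblast markers, 5 of the 6 tested were called higher in U87 and 8 of the 9 tested were called lower in U118, with summed levels of 241 to 244 against 459 to 546 TPM and of 1389 to 1746 against 301 to 674 TPM. DPT was at or near 0 in all groups. Among 10 glial and glioblastoma markers, AQP4 was at 0 and GFAP, SOX2 and S100B averaged under 1 TPM in every group. Group means were 4689 to 6056 TPM for the mesenchymal marker VIM, 345 to 801 TPM for CD44 and 6.76 to 15.3 TPM for NES. CHI3L1 averaged 66.4 TPM in U87 control, 39.3 TPM in U87 aggregation and less in both U118 groups. OLIG2 and FABP7 passed the filter in U87 only. Of these markers 6 were tested in U87 and 4 in U118, and none was called. On the median-ratio scale NES (1.49) and CHI3L1 (1.21) were called higher in U118 and none was called in U87. The summed glial list, in which VIM dominates, was 5097 to 5128 and 5486 to 6444 TPM in U87 control and aggregation, and 6739 to 6963 and 4803 to 7747 TPM in U118. The part of these measures in the member changes was not tested.

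All 47 members passed the filter on low values in both lines. Their summed level was 3994, 4343 and 4063 TPM in the U87 control libraries and 3140, 3044 and 3111 TPM in the U87 aggregation libraries. In U118 it was 4892, 4831 and 4279 TPM in control and 3765, 2417 and 2528 TPM in aggregation. The control libraries were above the aggregation libraries in both lines, without overlap. U118 aggregation replicate 1 was the highest of its group for 44 of 47 members, at a median of 1.68 times the mean of replicates 2 and 3. The median-ratio scaling factor, which follows the typical gene, was 1.10 in that library and 0.68 and 0.75 in replicates 2 and 3. The higher level was therefore not particular to the members. The median coefficient of variation of a member was 32.0% in that group against 8.0%, 6.82% and 10.1% in U87 control, U87 aggregation and U118 control.

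**Figure D1:**
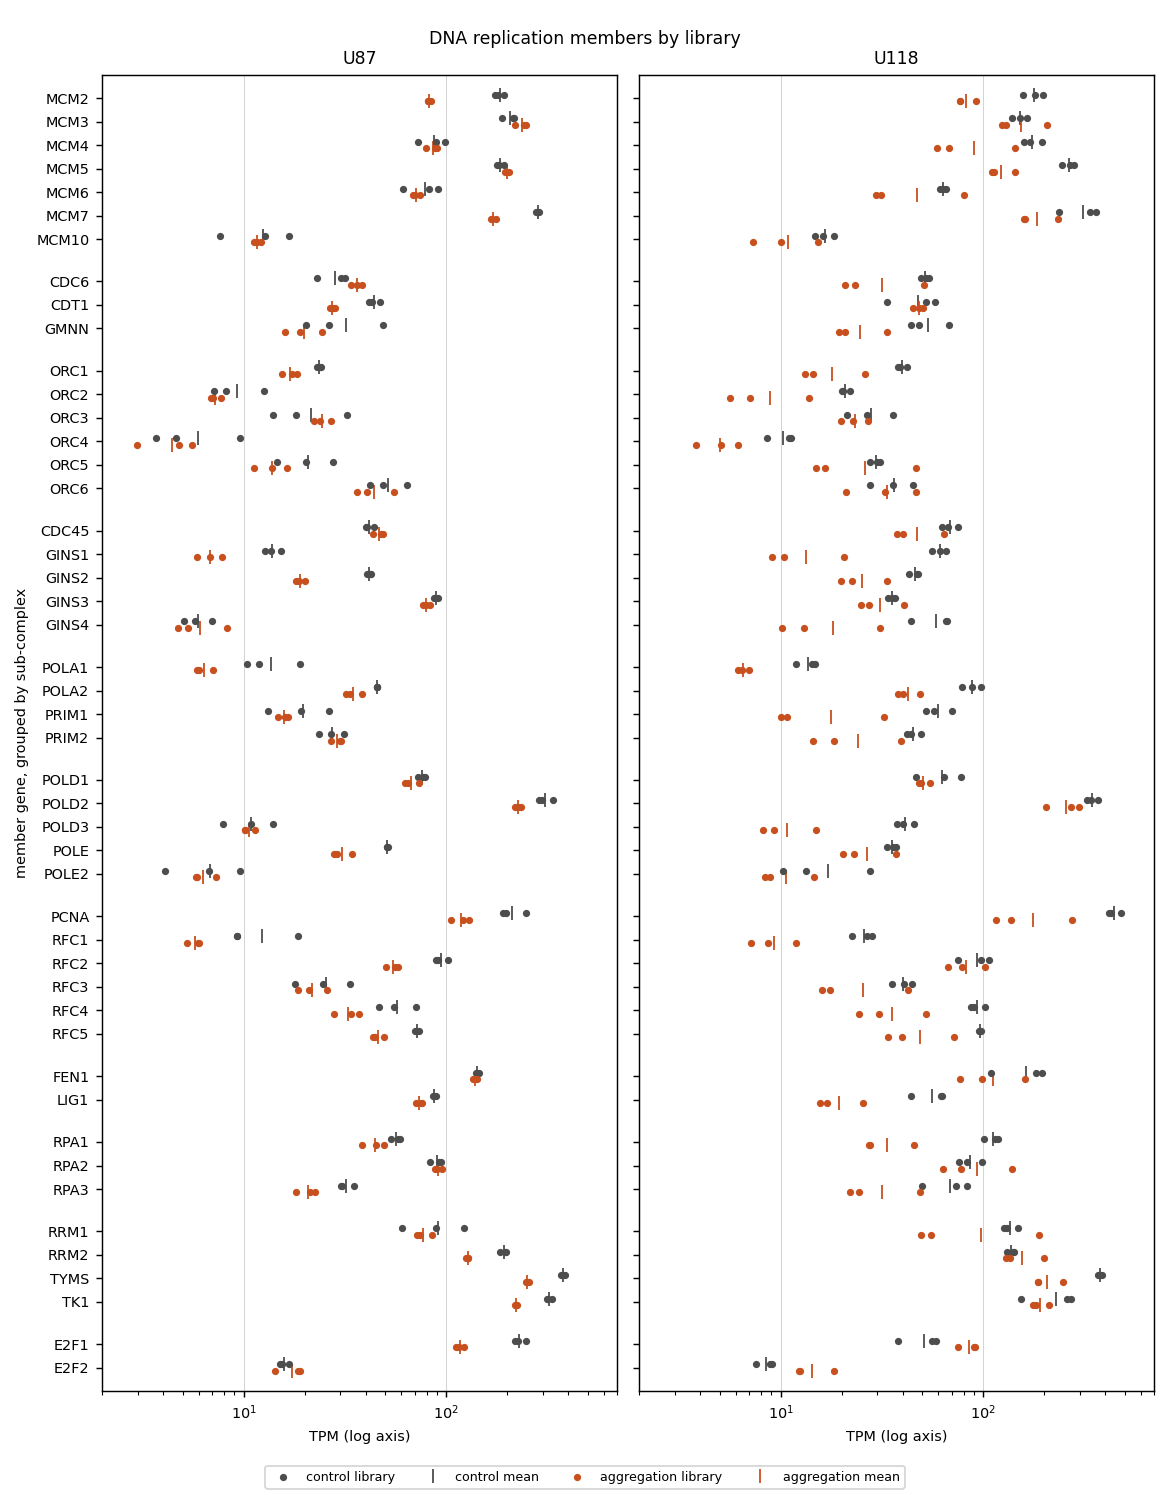
TPM (log axis) of the 47 member genes in each library of U87 (left) and U118 (right), grouped by sub-complex, with dots for libraries and ticks for group means. Grey stands for control and orange for aggregation; MCM2 separates cleanly in both lines, at 175 to 194 against 81.0 to 84.5 TPM in U87.

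In U87, 38 of 47 members were lower in aggregation cells and 9 were higher, with a median log2 fold change of -0.30 against -0.24 for all genes. MCM2 and GINS2 were called lower, 2 of 47 or 4.26%, against 7.79% of all genes tested. No member was called higher, against 3.03% of all genes, and MCM3 and CDC6 were higher at an unadjusted p under 0.05 by limma. Without the fold threshold 22 of 47 members had an adjusted p under 0.05, all of them lower, against 29.7% of all genes lower by that rule. On the median-ratio scale the median was -0.06, 25 members stayed lower and none was called. Leaving out U87 control replicate 1 or 3 or U87 aggregation replicate 1 raised the count to 4, 5 and 4. Of all genes, 9.53%, 7.14% and 8.28% were called lower in those fits.

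In U118, 42 of 47 members were lower and 5 were higher, with a median log2 fold change of -0.80 against -0.52 for all genes. Called lower were 19 members, 40.4%, against 26.6% of all genes tested. No member was called higher, against 8.64% of all genes, and E2F1 and E2F2 were higher at an unadjusted p under 0.05 by limma. On the median-ratio scale the median was -0.24 and 30 members stayed lower, with GINS1, GINS4, PRIM1, POLD3 and RPA1 called lower and E2F1 and E2F2 called higher, against 12.9% and 15% of all genes. The same 5 lower members kept their call under each of 13 alternatives, which the other 14 did not. Without U118 aggregation replicate 1, 26 members were called lower against 38.4% of all genes, the added 7 being MCM6 (-1.03), CDC6 (-1.19), ORC4 (-1.05), GINS2 (-1.08), RFC3 (-1.21), RRM1 (-1.36) and TYMS (-1.02), and without U118 aggregation replicate 2 the count was 12 of 47, against 23.0% of all genes.

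**Figure D2:**
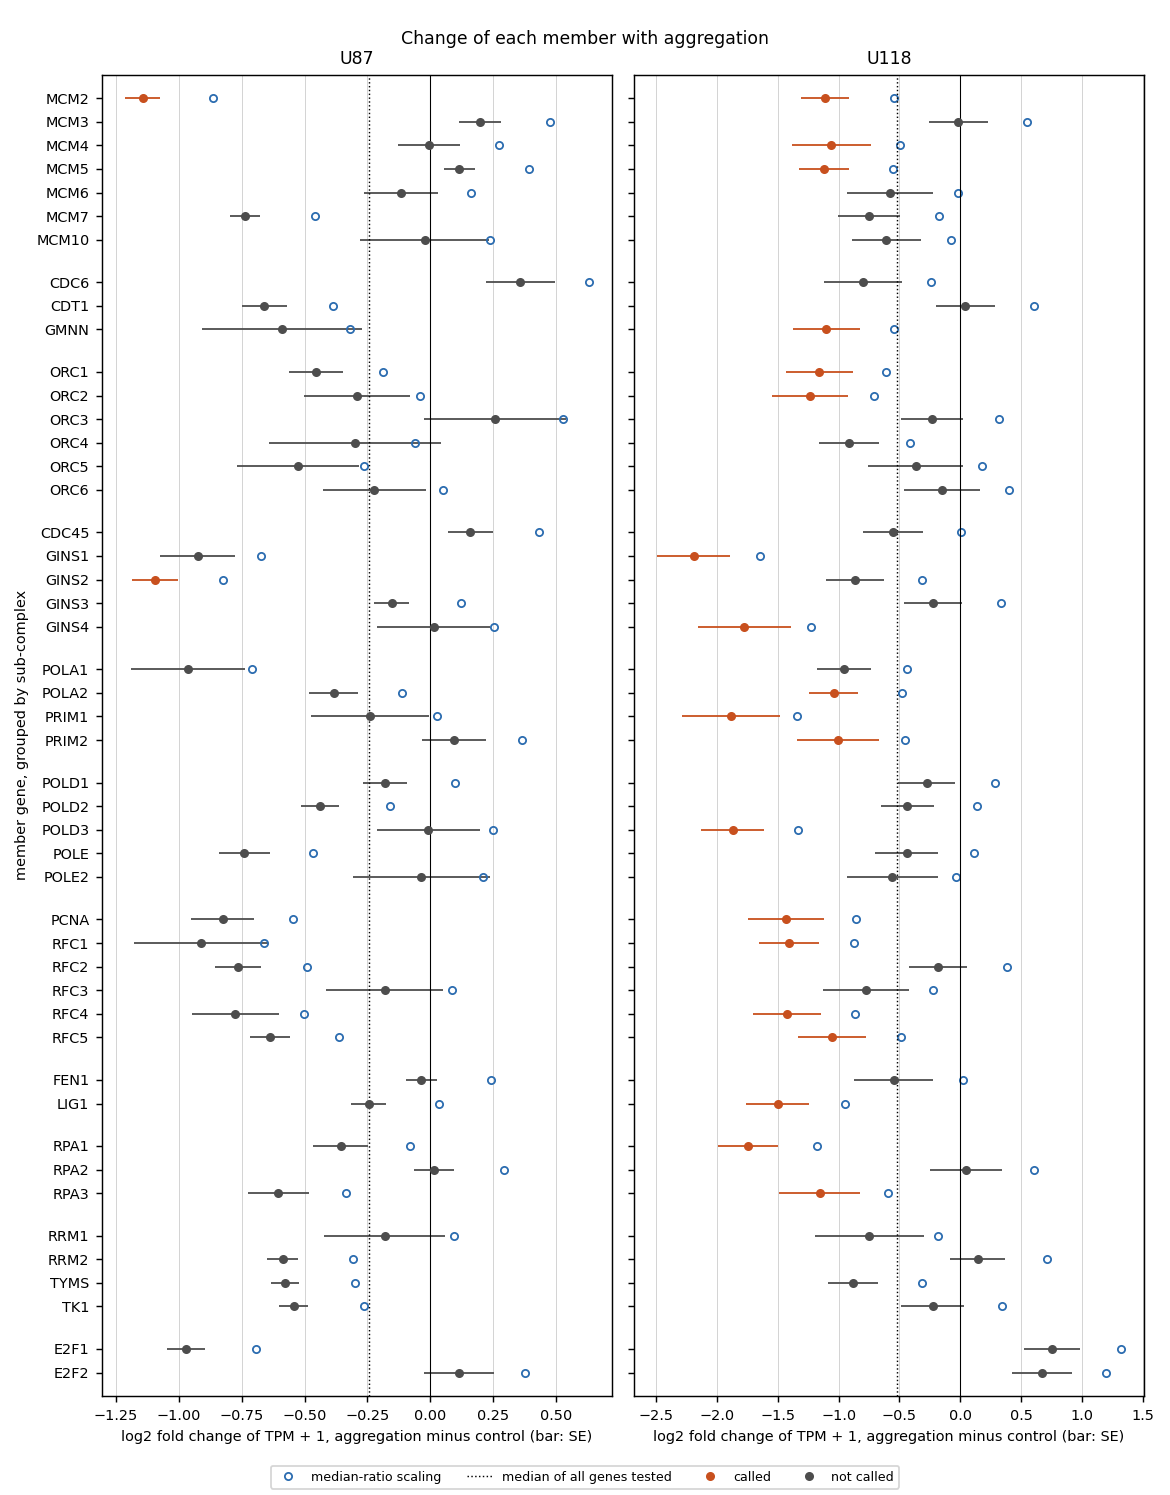
Log2 fold change of TPM + 1, aggregation minus control, for each member in U87 (left) and U118 (right), with filled dots and SE bars on the TPM scale and open circles under median-ratio scaling. Orange marks called members and the dotted line the median of all genes tested, -0.24 in U87 and -0.52 in U118; the open circles lie to the right of the filled ones in both lines and cross 0 for many members.

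The MCM2-7 ring is built from 6 different subunits in equal number, and its transcripts did not move together. MCM2 (ENSG00000073111, chr3:127598223-127622436, GRCh38, GENCODE 29) was called lower in both lines, the 1 member of which this was so. In U87 it was at 194, 175 and 181 TPM in control and at 84.5, 81.8 and 81.0 TPM in aggregation (log2 fold change -1.14, SE 0.070, adjusted p = 9.7e-05). U118 control had 180, 196 and 158 TPM and U118 aggregation 92.0, 76.8 and 76.4 TPM (-1.11, SE 0.20, adjusted p = 0.0018). The groups did not overlap in either line and the aggregation libraries of both lines sat at nearly the same level, but under median-ratio scaling the changes shrank to -0.87 and -0.54 and were not called. MCM7 was the most abundant subunit in the controls of both lines, at 284 ± 4.86 against 170 ± 5.64 TPM in U87 (SD, n = 3) and 311 ± 66.5 against 185 ± 41.7 TPM in U118, and its changes of -0.74 and -0.75 passed the adjusted p but not the fold threshold.

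MCM3 was called in neither line. It was at 188, 213 and 216 TPM in U87 control and at 248, 220 and 242 TPM in U87 aggregation, each aggregation library above each control library (0.20, SE 0.083, adjusted p = 0.10). In U118 its groups overlapped, with 152, 164 and 139 TPM in control and 207, 124 and 130 TPM in aggregation (-0.02, SE 0.24). Under median-ratio scaling MCM3 was higher in both lines, by 0.48 and 0.55.

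Of the 3 remaining ring subunits, MCM4 and MCM5 were called lower in U118 and none in U87. MCM5 was at 193, 179 and 183 TPM in U87 control and 200, 205 and 196 TPM in U87 aggregation, and at 268, 282 and 244 TPM in U118 control and 143, 113 and 110 TPM in U118 aggregation (-1.12, SE 0.20, adjusted p = 0.0019). MCM4 showed overlapping U87 groups, 86.8 ± 13.2 and 85.9 ± 5.86 TPM, but fell in U118 from 194, 171 and 160 TPM to 143, 59.0 and 67.4 TPM (-1.06, SE 0.32, adjusted p = 0.023). The MCM4 call was lost on leaving out any U118 library except aggregation replicate 1, at log2 fold changes of -1.12 to -0.82. MCM6 overlapped in both lines, and MCM10, which helps to fire the loaded helicase, did too, at 11.7 ± 0.435 TPM in U87 aggregation and 10.9 ± 4.02 TPM in U118 aggregation. Of the 7 MCM genes, 5 were lower in U87 and 7 in U118 on the TPM scale, with 1 and 3 called, against 7.79% and 26.6% of all genes. Median-ratio scaling left 2 of them lower in U87 and 6 in U118, with none called.

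**Figure D3:**
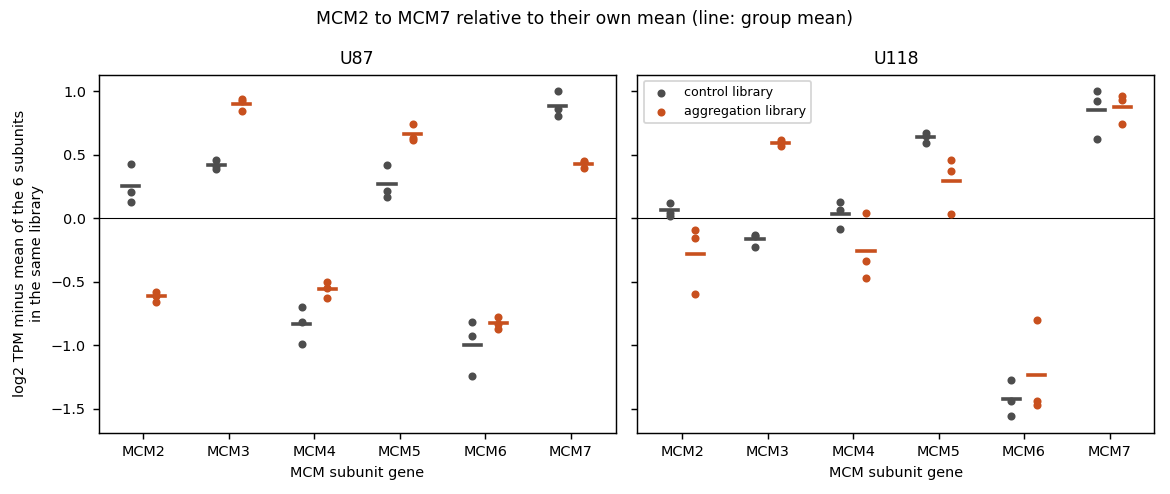
Log2 TPM of each MCM2-7 subunit minus the mean of the 6 subunits in the same library, for U87 (left) and U118 (right), with dots for libraries (grey control, orange aggregation) and bars for group means. This measure does not depend on the scaling of a library; the MCM2 means were 0.25 and -0.61 for U87 control and aggregation and 0.062 and -0.28 for U118, and the MCM3 means were 0.42 and 0.90 and then -0.17 and 0.60.

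Relative to the mean of the 6 subunits in the same library, MCM2 dropped and MCM3 rose in position in both lines without overlap of the groups. MCM7 lost position in U87, from 0.89 to 0.43, and stood at 0.85 and 0.88 in U118. A ratio of 2 members within a library also does not depend on scaling. The TPM ratio of MCM2 to MCM3 was 1.03, 0.821 and 0.838 in U87 control and 0.342, 0.372 and 0.335 in U87 aggregation, 2.55-fold lower. It was 1.18, 1.19 and 1.14 in U118 control and 0.445, 0.618 and 0.587 in U118 aggregation, 2.15-fold lower. MCM7 to MCM3 was 1.92-fold and 1.67-fold lower. The groups of these ratios did not overlap, and each two-sided exact permutation p was 0.1, the smallest that 3 against 3 libraries can give. The pairs with MCM3 were chosen after its values were seen. In all 14 pairs were compared in both lines, 28 comparisons, and the smallest Benjamini-Hochberg adjusted p was 0.2.

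Of the loading factors and their inhibitor, GMNN in U118 was the 1 call, and it ended under median-ratio scaling. Of all genes, 26.6% were called lower in U118. CDC6 was at 23.1, 31.7 and 30.2 TPM in U87 control and 38.6, 33.9 and 36.4 TPM in U87 aggregation, where every aggregation library was the higher (0.36, SE 0.14, adjusted p = 0.0795). In U118 it was at 49.1, 52.2 and 53.7 TPM in control and 50.9, 20.9 and 23.3 TPM in aggregation, so replicate 1 lay among the controls and the other two well below (-0.80, SE 0.32, adjusted p = 0.064). CDT1 fell in U87 from 44.0 ± 2.90 to 27.4 ± 0.726 TPM (-0.66, SE 0.090, adjusted p = 0.0017), under the fold threshold, and overlapped in U118 at 47.7 ± 12.6 and 47.9 ± 2.75 TPM. GMNN, the inhibitor, was called lower in U118, at 67.4, 44.1 and 48.0 TPM in control and 33.6, 20.7 and 19.4 TPM in aggregation (-1.10, SE 0.28, adjusted p = 0.0097), a call lost without control replicate 1 (-0.92) or aggregation replicate 3 (-0.96). In U87 its groups overlapped. The CDT1 to GMNN ratio was 0.698 to 1.30 in U118 control and 1.5 to 2.33 in U118 aggregation, 2.26-fold higher without overlap (exact permutation p = 0.1), whereas in U87 it ranged over 0.854 to 2.32 and 1.13 to 1.75.

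Of the 6 ORC subunits, which mark the origins, 5 were lower in U87 and 6 in U118, with none and 2 called, against 7.79% and 26.6% of all genes. Neither call held under median-ratio scaling. ORC1, the subunit that cycles in level with the cell cycle in human cells, went from 23.8, 23.1 and 24.0 to 18.4, 15.4 and 17.2 TPM in U87 (-0.45, SE 0.11, adjusted p = 0.015). Its U87 change was -0.19 under median-ratio scaling and did not pass (adjusted p = 0.32 by limma). In U118 it went from 38.7, 41.9 and 37.9 to 26.1, 13.2 and 14.5 TPM (-1.16, SE 0.28, adjusted p = 0.0076). ORC2 was called lower in U118, from 20.2, 20.3 and 21.9 to 13.8, 5.64 and 7.05 TPM (-1.23, SE 0.31, adjusted p = 0.010), and overlapped in U87 at 9.32 ± 2.93 and 7.23 ± 0.423 TPM. Both U118 calls were lost without U118 aggregation replicate 2, at -0.984 and -0.995. ORC6, the most abundant subunit in U87, did not pass in either line, at 51.6 ± 11.3 against 44.1 ± 10.1 TPM in U87 and 36.0 ± 8.62 against 33.3 ± 12.8 TPM in U118. The ORC1 to ORC2 ratio overlapped in both lines. Under median-ratio scaling ORC6 was higher in both lines, and ORC3 too, with ORC5 higher in U118.

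The GINS complex contains 4 subunits in equal number. GINS1 (ENSG00000101003, chr20:25407727-25452628) showed the largest U118 change of any member, from 65.4, 61.1 and 56.0 to 20.6, 9.02 and 10.4 TPM (-2.19, SE 0.30, adjusted p = 0.00040). In U87 it went from 12.7, 15.3 and 13.6 to 6.84, 5.90 and 7.80 TPM (-0.93, SE 0.15, adjusted p = 0.0033), just under the fold threshold. The groups were separate in both lines, U118 control stood far above all others, and U118 aggregation lay near U87 control. Median-ratio scaling left -1.65 in U118, still called.

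GINS4 was at 65.5, 66.3 and 43.8 TPM in U118 control and 31.0, 10.1 and 13.0 TPM in U118 aggregation (-1.78, SE 0.38, adjusted p = 0.0048). U87 had 5.94 ± 0.986 and 6.12 ± 1.91 TPM, with overlapping groups. GINS2 (ENSG00000131153, chr16:85676198-85690073) was the second U87 call, from 42.6, 40.5 and 41.9 to 18.1, 20.2 and 18.7 TPM (-1.10, SE 0.092, adjusted p = 0.00025), and fell in U118 from 45.8 ± 2.53 to 25.3 ± 7.25 TPM (-0.87, SE 0.24, adjusted p = 0.016), under the fold threshold. The U87 GINS2 change was -0.83 under median-ratio scaling and -0.97 with mitochondrially encoded genes left out, neither of them called. The U118 GINS2 change was -0.31 under median-ratio scaling and did not pass (adjusted p = 0.12 by limma).

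GINS3 was nearly level, at 88.9 ± 2.36 and 79.9 ± 3.05 TPM in U87 (-0.15, SE 0.070) and 35.5 ± 1.42 and 30.9 ± 8.40 TPM in U118 (-0.22, SE 0.24), and was higher in both lines under median-ratio scaling, by 0.12 and 0.33. The GINS1 to GINS3 ratio was accordingly 1.83-fold lower in U87 and 4.15-fold lower in U118, where it went from 1.65 to 1.84 down to 0.361 to 0.508. Neither line showed overlap of the groups (exact permutation p = 0.1). CDC45, the partner of GINS in the CMG helicase, overlapped in both lines, at 41.7 ± 1.94 and 46.7 ± 2.94 TPM in U87 and 68.1 ± 6.19 and 47.3 ± 14.6 TPM in U118.

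**Figure D4:**
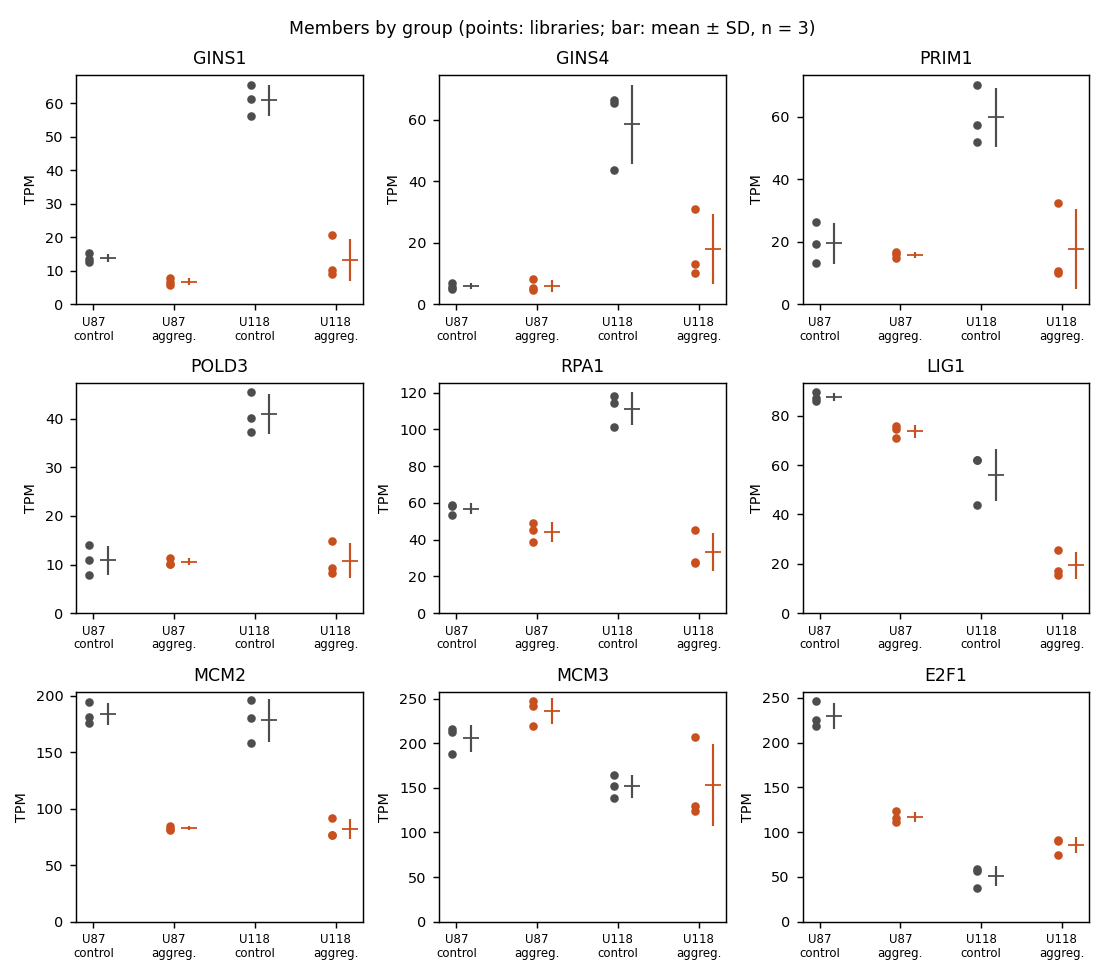
TPM (linear axis from 0) of 9 members in the 4 groups, with dots for libraries and bars for the mean ± SD (n = 3). GINS1, GINS4, PRIM1, POLD3 and RPA1 were high in U118 control and lower in the other 3 groups, MCM2 was low in both aggregation groups, and E2F1 moved in opposite directions in the 2 lines.

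Polymerase alpha and primase start each new strand, and 3 of these 4 members were called lower in U118 and none in U87, against 26.6% and 7.79% of all genes. On the median-ratio scale PRIM1 alone of the 4 was called. PRIM1 (ENSG00000198056, chr12:56731596-56752373), the catalytic primase subunit, went in U118 from 57.2, 51.9 and 70.2 to 32.4, 10.1 and 10.8 TPM (-1.88, SE 0.40, adjusted p = 0.0044). In U87 it overlapped, at 13.1, 26.3 and 19.2 TPM in control and 16.6, 16.0 and 14.8 TPM in aggregation. PRIM2, the other primase subunit, went in U118 from 49.1, 42.2 and 44.1 to 39.0, 14.4 and 18.4 TPM (-1.01, SE 0.34, adjusted p = 0.033) and overlapped in U87. As with MCM4, the PRIM2 call was lost on leaving out any U118 library except aggregation replicate 1, at -1.06 to -0.73.

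POLA2, the regulatory subunit of polymerase alpha, fell in U118 from 78.9, 88.1 and 97.3 to 48.6, 38.1 and 40.3 TPM (-1.04, SE 0.20, adjusted p = 0.0029). The call did not hold without U118 control replicate 3 or aggregation replicate 2, at -0.97 each. In U87 it fell from 45.5 ± 0.115 to 34.7 ± 3.33 TPM (-0.38, SE 0.096, adjusted p = 0.019). POLA1, the catalytic subunit, changed by the same amount in both lines, -0.96, from 13.7 ± 4.54 to 6.34 ± 0.658 TPM in U87 and from 13.6 ± 1.48 to 6.5 ± 0.406 TPM in U118, with separate groups and adjusted p of 0.015 and 0.0066 but under the fold threshold. On the median-ratio scale POLA1 and POLA2 were still lower in both lines, while PRIM1 and PRIM2 were higher in U87 by 0.03 and 0.36.

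Among the 5 members that are subunits of the replicative polymerases delta and epsilon, POLD3 in U118 was the 1 call. In U118 26.6% of all genes were called lower. The further subunits POLD4, POLE3 and POLE4 were counted with the other fork factors below. POLD3 (ENSG00000077514, chr11:74493851-74669117), an accessory subunit of polymerase delta, stood at 40.2, 37.3 and 45.5 TPM in U118 control and 14.9, 9.24 and 8.20 TPM in U118 aggregation (-1.87, SE 0.26, adjusted p = 0.00043). In U87 it was at 7.88, 13.9 and 10.8 TPM and 11.4, 10.2 and 10.1 TPM (-0.01, SE 0.20), overlapping each other and the range of U118 aggregation. POLD2, the most abundant of the 5, was 308 ± 24.6 and 226 ± 7.5 TPM in U87 and 345 ± 22.0 and 258 ± 48.0 TPM in U118, a change of -0.44 in each, which passed the adjusted p in U87 only (0.0044 against 0.12). Under median-ratio scaling the U87 change of POLD2 was -0.16 and did not pass (adjusted p = 0.26 by limma).

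The catalytic subunit POLD1 did not pass in either line. POLE, the catalytic subunit of polymerase epsilon, fell in U87 from 51.2, 51.1 and 51.5 to 34.4, 27.9 and 29 TPM (-0.74, SE 0.10, adjusted p = 0.0018), under the fold threshold, and POLE2 overlapped in both lines. The POLD3 to POLD2 ratio went from 0.101 to 0.14 in U118 control to between 0.0302 and 0.0728 in aggregation, 2.90-fold lower, and was 1.35-fold higher in U87 aggregation, both without overlap (exact permutation p = 0.1 each). That pair was chosen after the values were seen. Under median-ratio scaling POLD1, POLD2 and POLE were higher in U118 and POLD1, POLD3 and POLE2 in U87.

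The PCNA clamp and its loader RFC were the sub-complex with the lowest U87 median, -0.77, and the lowest U118 median, -1.23, against -0.24 and -0.52 for all genes. All 6 members were lower in both lines, and on the median-ratio scale all but RFC3 in U87 and all but RFC2 in U118 were. Called lower were 0 of 6 in U87 and 4 in U118, against 7.79% and 26.6% of all genes. Under median-ratio scaling none was called, with U118 changes of -0.86 for PCNA, -0.88 for RFC1, -0.86 for RFC4 and -0.49 for RFC5. PCNA (ENSG00000132646) went from 192, 248 and 197 to 121, 106 and 130 TPM in U87 (-0.83, SE 0.12, adjusted p = 0.0025), under the fold threshold. In U118 it went from 480, 429 and 420 to 273, 116 and 138 TPM (-1.43, SE 0.31, adjusted p = 0.0051). The groups were apart in both lines.

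RFC1, the large loader subunit, fell in U118 from 26.7, 22.6 and 28.2 to 11.9, 7.17 and 8.65 TPM (-1.41, SE 0.25, adjusted p = 0.0016). RFC4 fell there from 102, 86.5 and 89.9 to 51.9, 24.4 and 30.4 TPM (-1.43, SE 0.28, adjusted p = 0.0030). RFC5 fell from 97.7, 95.4 and 96.6 to 71.9, 34.0 and 39.6 TPM (-1.05, SE 0.28, adjusted p = 0.013), a call lost without U118 aggregation replicate 2 (-0.84) or 3 (-0.95). None of these 3 overlapped between the groups in either line, and their U87 changes of -0.91, -0.77 and -0.64 passed the adjusted p but not the fold threshold. RFC2 fell in U87 from 94.0 ± 6.82 to 54.9 ± 3.77 TPM (-0.77, SE 0.091, adjusted p = 0.00097), while its U118 groups overlapped at 93.3 ± 16.3 and 82.3 ± 17.7 TPM. The PCNA to RFC1 ratio overlapped in both lines, at 13.4 to 21.3 and 17.9 to 24.6 in U87.

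LIG1, the ligase that seals Okazaki fragments, was called lower in U118, from 62.3, 62.1 and 43.8 to 25.4, 15.6 and 17.0 TPM (-1.50, SE 0.26, adjusted p = 0.0015). LIG1 lost that call under median-ratio scaling (-0.95). Its U87 change was small but regular, from 87.6 ± 1.76 to 73.8 ± 2.63 TPM (-0.24, SE 0.070, adjusted p = 0.031), equal to the median of all genes, and 0.03 on the median-ratio scale. FEN1, the flap nuclease of the same step, did not pass, at 143 ± 2.94 and 139 ± 3.43 TPM in U87 and 162 ± 46.2 and 112 ± 43.4 TPM in U118.

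The 3 subunits of RPA, which coats single-stranded DNA as a trimer, also parted. RPA1 (ENSG00000132383, chr17:1829702-1900082) fell in U118 from 114, 118.3 and 101 to 45.3, 27.6 and 27.2 TPM (-1.74, SE 0.25, adjusted p = 0.00047), and in U87 from 53.3, 58.1 and 59.0 to 45.1, 38.5 and 49.2 TPM (-0.36, SE 0.11, adjusted p = 0.041). Under median-ratio scaling its U118 change was -1.18 and called, and its U87 change was -0.08 and did not pass (adjusted p = 0.65 by limma). RPA3 fell in U118 from 83.2, 73.5 and 49.7 to 48.5, 21.9 and 24.3 TPM (-1.16, SE 0.33, adjusted p = 0.018). That call did not hold when control replicate 1 or 2 or aggregation replicate 2 or 3 was left out, at -1.09 to -0.95. Nor did it hold under median-ratio scaling (-0.60). RPA2 was level in both lines, 90.1 ± 5.71 and 91.0 ± 4.01 TPM in U87 and 85.7 ± 11.3 and 92.9 ± 39.6 TPM in U118. The RPA1 to RPA2 ratio, a pair chosen after the values were seen, was 1.17 to 1.43 in U118 control and 0.329 to 0.437 in U118 aggregation, 3.53-fold lower, and 1.30-fold lower in U87, with separate groups in both (exact permutation p = 0.1 each).

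Nucleotide supply enzymes were among the most abundant members, and none of the 4 was called in either line. Of all genes, 7.79% were called lower in U87 and 26.6% in U118. TYMS, which makes thymidylate, was highest, at 376 ± 9.27 and 252 ± 3.47 TPM in U87 (-0.58, SE 0.056, adjusted p = 0.00042) and 378 ± 9.46 and 206 ± 34.9 TPM in U118 (-0.88, SE 0.21, adjusted p = 0.0069). TK1, the thymidine salvage kinase, went from 322 ± 9.51 to 221 ± 2.79 TPM in U87 (-0.54, SE 0.057, adjusted p = 0.000595), and overlapped in U118 at 229 ± 64.7 and 190 ± 19.2 TPM. On the TPM scale the TYMS and TK1 changes in U87 far exceeded the spread between libraries yet stayed under the fold threshold. Under median-ratio scaling they were -0.30 and -0.26, and neither passed an adjusted p of 0.05 by limma (0.0504 and 0.11). The U118 change of TYMS was -0.31 on that scale and did not pass either (adjusted p = 0.19 by limma). Without U118 aggregation replicate 1 the TYMS change was -1.02 and called.

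RRM2, the small subunit of ribonucleotide reductase, was at 196, 197 and 184 TPM in U87 control and 129, 129 and 126 TPM in U87 aggregation (-0.59, SE 0.063, adjusted p = 0.00063). In U118 it overlapped, at 130, 142 and 140 TPM and 199, 136 and 129 TPM. RRM1, the large subunit, overlapped in both lines, and U118 aggregation replicate 1, at 188 TPM, was far above replicates 2 and 3, at 49.1 and 54.9 TPM. Without that replicate RRM1 was called lower in U118 (-1.36). The RRM2 to RRM1 ratio overlapped in both lines. The TK1 to TYMS ratio was level in U87, 0.825 to 0.907 and 0.866 to 0.900, and higher without overlap in U118, 0.398 to 0.718 against 0.861 to 0.979 (exact permutation p = 0.1). Under median-ratio scaling RRM1 was higher in U87, and RRM2 and TK1 in U118. The U87 change of RRM2 was -0.31 on that scale (adjusted p = 0.061 by limma).

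E2F1 (ENSG00000101412, chr20:33675683-33686404) was lower in U87 and higher in U118. In U87 it fell from 247, 226 and 218 to 123, 116 and 112 TPM (-0.97, SE 0.076, adjusted p = 0.00020), just under the fold threshold. In U118 it was the higher in aggregation, 74.9, 91.1 and 89.7 against 58.4, 56.1 and 37.9 TPM (0.75, SE 0.23, adjusted p = 0.024). Neither line showed overlap of the groups, and on the median-ratio scale the changes were -0.69 and 1.32, the second of them called. E2F2 was at 15.8 ± 0.786 and 17.3 ± 2.58 TPM in U87, with overlap, and rose in U118 from 8.85, 9.10 and 7.54 to 18.3, 12.5 and 12.3 TPM (0.67, SE 0.25, adjusted p = 0.045; 1.19 on the median-ratio scale, called). The E2F1 to E2F2 ratio went in U87 from 14.4 to 14.8 down to 6.05 to 8.11, 2.14-fold lower without overlap (exact permutation p = 0.1), and overlapped in U118.

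The difference between the lines was tested as an interaction over all 12 libraries, the U118 change minus the U87 change. It was called for 11 members, 10 of them lower against 18.5% of all genes tested and 1 higher, E2F1, against 12% of all genes. The lower ones were MCM4, MCM5, CDC6, GINS1, GINS4, PRIM1, PRIM2, POLD3, LIG1 and RPA1. E2F1 differed by 1.72 (SE 0.24, adjusted p = 9.7e-05), POLD3 by -1.87 (SE 0.33, adjusted p = 0.00076) and GINS4 by -1.79 (SE 0.49, adjusted p = 0.012). On the TPM scale MCM2, MCM7, POLA1 and POLD2 had nearly equal changes in both lines, with differences of 0.03, -0.01, 0.01 and 0.00 and SE of 0.19, 0.26, 0.30 and 0.21. The median difference of all genes tested was -0.24 on that scale. On the median-ratio scale, where that median was -0.036, the differences of these members were 0.27, 0.22, 0.23 and 0.24, and none was called. The interaction was called for 14 members without U118 aggregation replicate 1 and for 7 on leaving out U87 control replicate 1, U87 aggregation replicate 1, U118 control replicate 3 or U118 aggregation replicate 2 or 3. Under median-ratio scaling the interaction was called for 7, which were GINS1, GINS4, PRIM1, POLD3, LIG1, RPA1 and E2F1. On that scale 14.9% of all genes were called lower and 15.2% higher.

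**Figure D5:**
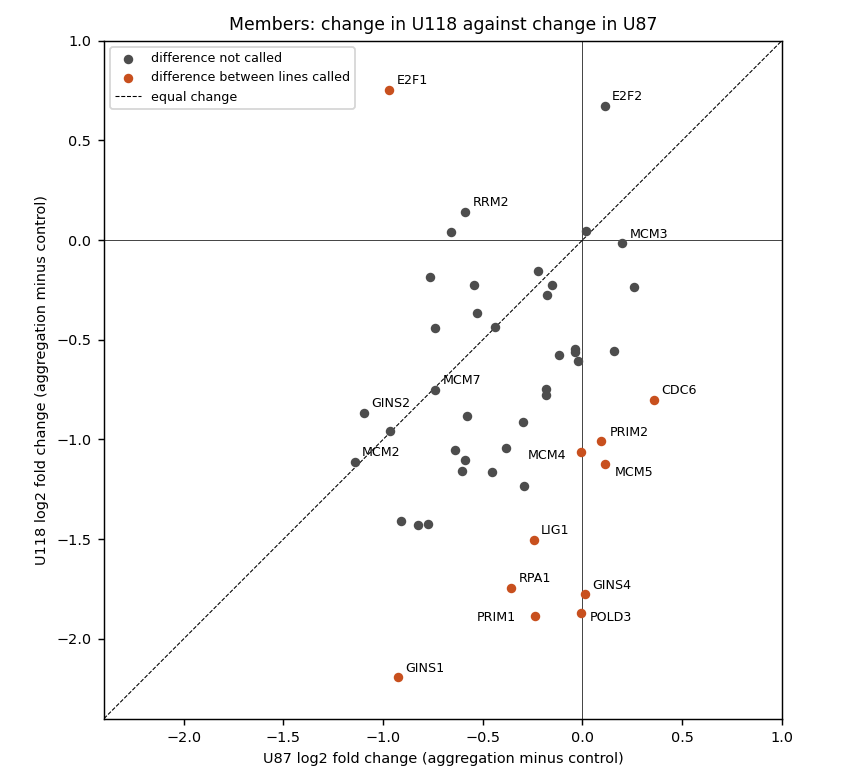
Log2 fold change of each member in U118 (vertical) against U87 (horizontal), with the dashed line for equal change. Orange marks the 11 members whose difference between the lines was called; MCM2, MCM7 and GINS2 lie near the line, GINS1 and POLD3 far below it and E2F1 above it, at -0.97 and 0.75.

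Promoter letters were read for the members because E2F factors bind the start regions of many replication genes. RefSeq start regions (GRCh38.p14, 250 bases before to 50 after the first listed start) were at hand for 41 of the 47 members. The motif searched was TTTCCCGC, TTTCGCGC, TTTGCCGC or TTTGGCGC on either strand. It was present in 20 of 41 members, 48.8%, against 3.33% of 27305 start regions of the same length. CCAAT, on either strand, was in 56.1% of members and 35.7% of all regions, GGGCGG in 68.3% and 44.6%, and TTTGAA in 2.44% and 15.4%. A match is a string of letters and not a shown binding site.

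The E2F matches of members that moved differently are shown with 30 bases around them. MCM2 and MCM7, at lower TPM in both aggregation groups, are set beside MCM3, which was not, and with 3 other called members. Capitals mark the E2F letters only, not CCAAT or GGGCGG, and positions count from the RefSeq start, with no position 0.
MCM2, -7 to 23 (chr3:127598404-127598433, plus strand): tgaaccactTTTCGCGCGAAAcctggttgt
MCM3, -185 to -156 (chr6:52284898-52284927, minus strand): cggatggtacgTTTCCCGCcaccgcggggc
MCM3, -15 to 15 (chr6:52284728-52284757, minus strand): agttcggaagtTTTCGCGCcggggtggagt
MCM7, -198 to -169 (chr7:100101566-100101595, minus strand): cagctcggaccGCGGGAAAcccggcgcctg
MCM7, -20 to 10 (chr7:100101388-100101417, minus strand): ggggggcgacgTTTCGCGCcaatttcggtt
GINS2, -42 to -13 (chr16:85688967-85688996, minus strand): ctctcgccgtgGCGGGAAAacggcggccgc
PCNA, -70 to -41 (chr20:5126663-5126692, minus strand): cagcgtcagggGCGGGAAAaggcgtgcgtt
LIG1, -125 to -96 (chr19:48170440-48170469, minus strand): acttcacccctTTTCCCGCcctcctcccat

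MCM2, MCM3 and MCM7 all held TTTCGCGC at the start, MCM2 in both directions with 4 letters shared. MCM3 changed unlike MCM2 and MCM7, and whether the letters bear on the changes was not tested. The longer stretches below belong to E2F1, which moved in opposite directions in the lines, and GINS1, with the largest change. Capitals mark E2F and CCAAT letters.
E2F1, -200 to 5 (chr20:33686381-33686585, minus strand): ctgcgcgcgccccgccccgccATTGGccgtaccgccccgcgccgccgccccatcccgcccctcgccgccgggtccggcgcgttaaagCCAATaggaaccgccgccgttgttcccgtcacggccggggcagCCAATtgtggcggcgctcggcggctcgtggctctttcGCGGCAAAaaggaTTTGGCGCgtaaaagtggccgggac
GINS1, -200 to 20 (chr20:25407473-25407692, plus strand): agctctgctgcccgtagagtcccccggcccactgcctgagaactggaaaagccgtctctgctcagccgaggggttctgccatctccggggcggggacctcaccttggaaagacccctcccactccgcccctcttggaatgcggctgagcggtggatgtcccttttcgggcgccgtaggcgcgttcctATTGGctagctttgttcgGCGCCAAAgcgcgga

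The 20 members with an E2F match had a median log2 fold change of -0.48 in U87 and -0.76 in U118, and the 21 without one had -0.36 and -0.75. Called, all of them lower, were 2 and 0 in U87 and 5 and 9 in U118. Of all genes, 7.79% were called lower in U87 and 26.6% in U118, with medians of -0.24 and -0.52. Whether members with and without a match differed was not tested.

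Beyond the members, 78 further replication, nucleotide and E2F genes were read from 5 lists. In U87, 10 of 76 tested were called lower and 1 higher, against 7.79% and 3.03% of all genes, and in U118 31 of 78 were called lower and 2 higher, against 26.6% and 8.64%. Under median-ratio scaling the calls were 4 and 2 in U87, where 3.8% and 4.95% of all genes were called, and 11 and 4 in U118, where 12.9% and 15% were. The counts for the 5 lists below are to be read against these shares. Their median log2 fold changes were -0.48 and -0.85, against -0.24 and -0.52 for all genes.

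The 17 other initiation factors and kinases gave 2 lower calls in U87 and 10 lower and 1 higher in U118, or 1 lower in U87 and 3 lower and 1 higher in U118 on the median-ratio scale. CCNA2, the S phase cyclin A, was called lower in both lines, from 79.4 ± 23.9 to 26.9 ± 1.19 TPM in U87 (-1.49) and from 113 ± 17.5 to 31.4 ± 12.7 TPM in U118 (-1.88). TOPBP1, a scaffold of helicase activation, was the other U87 call (-1.2) and was also called in U118 (-1.40), and both calls ended under median-ratio scaling (-0.93 and -0.84). CDC7, the kinase that activates the MCM ring, fell in U118 from 25.1 ± 5.77 to 4.99 ± 2.38 TPM (-2.17), and MCM8 from 23.6 ± 3.18 to 5.19 ± 2.21 TPM (-2.04). CCNE1, the G1 cyclin E1, rose in U118 from 9.84 ± 0.808 to 40.5 ± 13.3 TPM (1.89), the opposite direction to CCNE2 (-1.34, or -0.81 and not called under median-ratio scaling).

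Of 18 other fork factors, 2 were called lower in U87, TOP2B (-2.03) and TIPIN (-1.09), and 9 in U118, where CHTF18, an alternative clamp loader subunit, fell from 51.9 ± 8.15 to 8.16 ± 2.95 TPM (-2.56). TOP2A (-1.87) and TIMELESS (-1.71) followed it in size. POLD4, the smallest subunit of polymerase delta, was called higher in U118, from 38.6 ± 2.16 to 109 ± 12.5 TPM (1.46), while POLD3 of the same enzyme fell. Chromatin assembly genes gave no call in U87. Of these 9 genes 4 were lower there at an adjusted p under 0.05 by limma, against 29.7% of all genes. On the median-ratio scale SLBP (-0.59) and UHRF1 (-0.40) stayed lower in U87 by that rule, and RBBP4 (0.50) was higher. In U118 chromatin assembly gave 2 calls, UHRF1 (-1.38) and DNMT1 (-1.21), the pair that maintains DNA methylation behind the fork. Under median-ratio scaling neither of these was called (-0.81 and -0.65), nor was TIPIN in U87 (-0.83), and the fork factors kept 1 lower call in U87 and 3 in U118.

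Other nucleotide synthesis and salvage genes gave 5 lower calls in each line out of 23, against 7.79% of all genes in U87 and 26.6% in U118, and 1 and 2 under median-ratio scaling. IMPDH1, of guanine nucleotide synthesis, was called in both, from 51.0 ± 2.13 to 20.6 ± 2.31 TPM in U87 (-1.27) and from 28.6 ± 2.54 to 7.80 ± 0.582 TPM in U118 (-1.75). SAMHD1, which degrades deoxynucleotides, was called in both at -1.01 and -1.04, and both calls ended under median-ratio scaling (-0.76 and -0.51) and without mitochondrially encoded genes (-0.91 and -0.87). In U87 the pyrimidine enzyme DHODH (-1.24) and IMPDH2 (-1.07) were also called, and in U118 CAD, which starts pyrimidine synthesis, fell from 107 ± 3.64 to 19.5 ± 2.94 TPM (-2.41) and DCK by 1.24 on the log2 scale. The calls of DHODH, IMPDH2 and DCK also ended under median-ratio scaling (-0.97, -0.79 and -0.71). RRM2B, the p53-regulated small subunit of ribonucleotide reductase, was the 1 gene called higher in U87, from 6.47 ± 4.34 to 16.0 ± 2.08 TPM (1.32), and was not called in U118.

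The 11 other E2F and pocket protein genes gave 1 lower call in U87 and 5 in U118. E2F5, a repressor, was called in both, from 8.69 ± 0.780 to 0.845 ± 0.186 TPM in U87 (-2.39) and from 9.9 ± 1.2 to 2.39 ± 0.867 TPM in U118 (-1.71). E2F3 (-1.61), TFDP2 (-1.50) and RB1 (-1.45) were called lower in U118, the last 2 not under median-ratio scaling (-0.96 and -0.91). E2F7, an atypical repressor of E2F targets, averaged 49.1 TPM in U118 control and was listed at 0 in all 3 U118 aggregation libraries. It averaged 0.012 TPM in U87 control and 0.072 TPM in U87 aggregation, so on this gene too U118 aggregation lay with U87 and apart from the control of its own line.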

How the data were processed

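mRNA-seq values of 12 libraries (VAHTS mRNA-seq kit, per the labels) were analysed, in 4 groups of 3 read from the sample labels. The authors deposited TPM values per gene, 1 table per cell line, with 1 column for each library and 0 columns left unused here. The submitters' processing notes name the build GRCh38, FastQC 0.11.2, Trimmomatic 0.36, HISAT2 2.0 and bedtools 2.26.0, and the quantification tool and annotation are not given in the sources used here. TPM hold no counts, so no count model was run, and a shift in a few abundant genes moves all others.

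A gene entered a fit when 3 or more of the fitted libraries reached 1 TPM. Fits were made on log2(TPM + 1) by limma (version 3.58.1, under R 4.3.3, with lmFit and a trended eBayes), for each line alone (13845 and 15527 genes) and over 12 libraries for the interaction (16382 genes). Benjamini-Hochberg adjustment covered every gene fitted, and a call needed both an adjusted p below 0.05 and a change no smaller than 1 on the log2 scale. Within-library ratios were compared with two-sided exact permutation tests (scipy 1.17.1). The tables of the lines were normalized separately by scaling to a fixed total. The fits of the 2 lines were tested on simulated data.

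The member genes, related lists and marker lists were chosen with earlier results of these data known. All members could be named; members called in any comparison were given in full with the most abundant member of a sub-complex without a call, and of each related list the called genes with the largest changes, at most 3 per line and direction. Further called genes of the related lists, the 5 added ratio pairs and the genes of the printed sequences other than MCM2 were chosen after their values were seen. Gene coordinates are from GENCODE 29 and start-region sequences from RefSeq (GRCh38.p14). Alternatives were a pseudocount of 0.1, no filter, a floor of 10 TPM on the mean, scaling by median ratios, TPM without the 37 mitochondrially encoded genes, a replicate block, eBayes without trend, no fold threshold and leaving out each library. Same-numbered control and aggregation libraries did not deviate together in every pair (correlations of -0.062 to -0.0068 in U87 and 0.048 to 0.14 in U118), so the numbers were not used as pairs.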

Additional observations from a re-analysis of the deposited data

Results flagged for a closer look

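For 11 members the change with aggregation differed between the lines in the interaction test, given as the log2 change in U118 minus that in U87. Lower in U118 were POLD3 (-1.87), GINS4 (-1.79), PRIM1 (-1.65), RPA1 (-1.39), GINS1 (-1.27), LIG1 (-1.26), MCM5 (-1.24), CDC6 (-1.16), PRIM2 (-1.10) and MCM4 (-1.06), and higher was E2F1 (1.72). These are 10 and 1 of 47 members, against 18.5% of all genes lower and 12% higher in that test. The difference held under each of 19 alternatives for POLD3, GINS4, RPA1, GINS1, LIG1 and E2F1. MCM5 lost it under median-ratio scaling, where it was just under 1 in size. It was called under 13 of the 19 for PRIM1, 10 for CDC6, 7 for PRIM2 and 6 for MCM4, and for these 4 it was lost on leaving out U87 control replicate 1 (-1.40, -1.02, -1.01 and -0.93), U87 aggregation replicate 1 (-1.61, -1.12, -1.08 and -1.04), U118 control replicate 3 (-1.53, -1.13, -1.12 and -1.12) or U118 aggregation replicates 2 (-1.36, -0.93, -0.82 and -0.81) or 3 (-1.41, -1.002, -0.98 and -0.91). It was also lost without U87 aggregation replicate 3 or U118 control replicate 2 for CDC6 (-1.16 and -1.15), PRIM2 (-1.07 and -1.15) and MCM4 (-1.02 and -1.07), and without U87 control replicate 3, U87 aggregation replicate 2 or U118 control replicate 1 for PRIM2 (-1.10, -1.15 and -1.04) and MCM4 (-1.08, -1.11 and -0.98).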

How the results depend on the processing

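The 5 members GINS1, GINS4, PRIM1, POLD3 and RPA1 stayed called lower in U118 under each of 13 alternatives. The U87 count of members called lower, 2, became 5 with a pseudocount of 0.1, 0 under median-ratio scaling, 1 without mitochondrially encoded genes and 22 with no fold threshold, and ranged from 2 to 5 on leaving out a library. Of all genes these settings called 11.1%, 3.8%, 5.82% and 29.7% lower, and the fits without a library 6.15% to 9.53%. The U87 median, -0.30, became -0.37 with a mean of 10 TPM required, -0.062 under median-ratio scaling and -0.19 without mitochondrially encoded genes, and ranged from -0.45 to -0.24 on leaving out a library. The U118 count, 19, became 5 under median-ratio scaling and 10 without mitochondrially encoded genes, and ranged from 12 to 26 on leaving out a library. Of all genes, 12.9% and 21.8% were called lower under those 2 settings, and 20.1% to 38.4% without a library. Members called higher in U118, 0, became 2 under median-ratio scaling and 2 with no fold threshold, and the U118 median became -0.24 under median-ratio scaling. Of all genes, 15% were called higher under median-ratio scaling and 12.2% with no fold threshold. Differences between the lines, 11, became 7 without a filter and 7 under median-ratio scaling, and ranged from 7 to 14 on leaving out a library. Of all genes, 7.22% were called lower and 4.96% higher without a filter, and 14.9% and 15.2% under median-ratio scaling. Without a library the shares were 13.2% to 26.6% lower and 10.9% to 12.6% higher. In U87, median-ratio scaling turned from lower to higher MCM4 (0.27), MCM6 (0.16), MCM10 (0.24), ORC6 (0.052), GINS3 (0.12), PRIM1 (0.027), POLD1 (0.097), POLD3 (0.25), POLE2 (0.21), RFC3 (0.088), FEN1 (0.24), LIG1 (0.033) and RRM1 (0.095). In U118, median-ratio scaling turned from lower to higher MCM3 (0.55), ORC3 (0.32), ORC5 (0.18), ORC6 (0.40), CDC45 (0.0082), GINS3 (0.33), POLD1 (0.29), POLD2 (0.13), POLE (0.11), RFC2 (0.38), FEN1 (0.022) and TK1 (0.34). In U87, leaving out mitochondrially encoded genes turned from lower to higher MCM4 (0.13), MCM6 (0.021), MCM10 (0.11), POLD3 (0.12), POLE2 (0.089) and FEN1 (0.10). In U118, leaving out mitochondrially encoded genes turned from lower to higher MCM3 (0.18), ORC6 (0.039) and RFC2 (0.012). Leaving out 1 library at a time changed the direction of these members, with the range of their changes: in U87 MCM4 (-0.13 to 0.091), MCM6 (-0.28 to 0.0014), MCM10 (-0.31 to 0.21), ORC4 (-0.54 to 0.051), GINS4 (-0.20 to 0.15), PRIM2 (-0.0041 to 0.19), POLD3 (-0.20 to 0.17), POLE2 (-0.31 to 0.22), RFC3 (-0.40 to 0.036), RPA2 (-0.036 to 0.049) and RRM1 (-0.44 to 0.066), and in U118 MCM3 (-0.25 to 0.12), CDT1 (-0.19 to 0.19), ORC6 (-0.42 to 0.14), RPA2 (-0.28 to 0.28) and RRM2 (-0.053 to 0.26). The cause of these shifts was not tested. The replicate block changed no member call, with 2 members called lower in U87, 19 in U118 and 11 differences between the lines; of all genes it called 1040 lower in U87 against 1078 without it. Same-numbered libraries correlated best with each other for each control library of U118, and not in U87. TPM give no read depth, so counting error could not be separated from the spread between libraries.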

Other observations

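The mean levels of the members in the libraries labelled U118 aggregation were set beside those of each other group, as values with no test. On the log2(TPM + 1) scale, 35 of 47 members of U118 aggregation were nearer to U87 aggregation than to U118 control, and 12 were nearer to U118 control. For comparison, 40 of 47 members of U87 aggregation were nearer to U87 control than to U118 control. U118 aggregation minus U87 aggregation had a median of -0.02 over the members, with 24 of 47 below 0 and 34 within 0.5 of each other. U118 aggregation minus U87 control had a median of -0.31, with 40 of 47 below 0, and U118 aggregation minus U118 control a median of -0.80, with 42 below 0. The cause was not tested.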
